A study of Arabidopsis thaliana with 4 samples.

Results

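Divergent promoters are stretches between a pair of neighbouring genes that are transcribed away from each other. Here a divergent pair was 2 neighbouring protein-coding genes of chromosomes 1 to 5 of Arabidopsis thaliana, with the left gene on the minus strand, the right gene on the plus strand and 0 to 1000 bp between their annotated transcription start sites (TSS). The TAIR10.1 annotation held 2493 such pairs, with 4986 of its 27444 protein-coding genes on these chromosomes. A divergent region was an H3K4me3 region, made by merging the overlapping peaks of all libraries, that reached into the span from 500 bp left of the left TSS to 500 bp right of the right TSS. By this rule 2329 of 16070 regions were divergent regions, and 1 of them belonged to 2 pairs. Another 12082 regions lay within 500 bp of some other protein-coding TSS and are called other promoter regions.

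H3K4me3 was profiled by CUT&Tag, in which an antibody brings a transposase to the marked nucleosomes so that only DNA beside them is cut out and sequenced. The samples were labelled root tissue of the wild-type accession Col-0. A control group (2 libraries) and an osmotic stress group (2 libraries) were compared, and the paper's plants were 10 days old and grew on the same medium without or with 250 mM sorbitol. Both groups carried the same genotype. The paper calls the CUT&Tag replicates biological. The labels did not say whether the 2 libraries of a group came from separate plants. The tests therefore measured the spread between these libraries, part of which may be technical. The question was where H3K4me3 lay and how it changed with sorbitol.

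H3K4me3 is a histone mark found on the first nucleosomes of transcribed genes, downstream of the TSS, and it is set by methyltransferases that travel with the early elongating polymerase. Nucleosomes are often missing from the promoter itself. At a divergent promoter the first nucleosomes of both genes flank one such open stretch, so the mark can form a single domain over both gene starts, a domain on each gene or a domain on a single gene.

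Both control libraries were shallower (9011630 and 6396842 fragments) than both stress libraries (15974955 and 25714827 fragments), so depth and condition cannot be told apart where peaks are counted. Peaks on chromosomes 1 to 5 numbered 12698 to 15783 per library. Of 10 root marker genes, 3 (SHR, PLT2 and WER) had a peak within 500 bp of the TSS in every library and 4 (GL2, COBL9, CASP1 and SMB) had none, while none of 8 flower and leaf genes had one. Signal below is the highest pileup of a region, the number of fragments stacked over one base, per 1000000 fragments of the library. It is relative to the library, so a change in the total amount of H3K4me3 cannot be seen in it.

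The DNA between the 2 TSS shows how little room many of these pairs had. The pairs lay 370 bp apart in the median, with quartiles of 154 and 673 bp. A few stretches are shown for regions described below, from the pairs with 30 to 300 bases between the TSS. The first 2 rose under stress, the next 2 fell, and the last 2 were among the strongest of all divergent regions. Each is given 5′ to 3′ on the plus strand of TAIR10.1 (RefSeq), so the left gene begins just before the first base and is read to the left, and the right gene begins just after the last base. Capitals mark the motifs found, on either strand. The motifs searched were the site II element with the letters TGGGCC, which is frequent at genes of growing cells, and the TATA box with the letters TATAAA, where the general transcription machinery binds. The G-box with the letters CACGTG, bound by bZIP and bHLH proteins, was the third motif searched for. The telo box was searched as AAACCCTA. The W-box of WRKY proteins was searched as TTGACC, and the core of the dehydration-responsive element (DRE) was searched with the letters GCCGAC. No motif contains another, though their ends can overlap.
AT2G34930 and VSR5 (chr2:14740147-14740347): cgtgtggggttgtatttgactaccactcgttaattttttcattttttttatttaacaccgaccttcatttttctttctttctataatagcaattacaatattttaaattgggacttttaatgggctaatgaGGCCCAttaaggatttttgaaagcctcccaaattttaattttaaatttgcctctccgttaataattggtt
PSAT1 and BARD1 (chr1:1036265-1036492): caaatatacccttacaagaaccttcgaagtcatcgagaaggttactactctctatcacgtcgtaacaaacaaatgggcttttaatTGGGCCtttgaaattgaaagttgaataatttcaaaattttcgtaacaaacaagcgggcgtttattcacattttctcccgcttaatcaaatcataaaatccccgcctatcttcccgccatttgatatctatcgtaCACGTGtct
UBC10 and AT5G53310 (chr5:21634315-21634423): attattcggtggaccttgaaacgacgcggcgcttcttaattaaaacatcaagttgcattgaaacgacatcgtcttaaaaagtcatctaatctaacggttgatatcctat
AT3G02080 and MPPBETA (chr3:365377-365536): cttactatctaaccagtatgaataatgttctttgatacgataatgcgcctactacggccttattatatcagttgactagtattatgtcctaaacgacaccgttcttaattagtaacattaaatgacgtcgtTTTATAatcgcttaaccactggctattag
AT2G36300 and FACE2 (chr2:15214341-15214385): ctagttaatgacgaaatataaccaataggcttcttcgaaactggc
AT5G02960 and AT5G02970 (chr5:694516-694782): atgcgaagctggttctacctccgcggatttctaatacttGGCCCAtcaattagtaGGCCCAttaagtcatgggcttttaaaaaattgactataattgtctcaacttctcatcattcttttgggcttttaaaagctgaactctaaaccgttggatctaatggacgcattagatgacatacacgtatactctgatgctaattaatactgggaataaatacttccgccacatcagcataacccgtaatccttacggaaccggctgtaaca
The site II element was present in 4 copies over 3 of these stretches, AT2G34930 and VSR5, PSAT1 and BARD1, and AT5G02960 and AT5G02970. The stretches of UBC10 and AT5G53310 and of AT2G36300 and FACE2 held none of these motifs. Another rise in this range of lengths, AT4G13500 and AMT1;1, and another fall, AT2G40010 and AT2G40020, are not shown. Neither of them held a site II element, and the TATA box was matched 2 times in the former and 1 time in the latter. A match is a run of letters and not a bound site.

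Motif content differed between pairs by the H3K4me3 they carried. In windows from 250 bases before to 50 bases after the TSS, the site II element was found in 40.7% of 1808 promoters of pairs with a shared peak in every library, against 15.5% of 27443 protein-coding promoters. Among the pairs marked at a single gene in every library it was in 33% of the 663 promoters of the marked genes and in 16.3% of the 663 promoters of their unmarked partners. Promoters of pairs with no peak held it in 11.4% of 692 cases. Over the promoters of all 4986 genes in divergent pairs its share was 28.2%. The telo box was found in 15.6% of promoters of shared pairs, 7.24% of those of marked genes, 8.6% of those of unmarked partners, 8.24% of those of pairs with no peak and 6.22% of all protein-coding promoters. The G-box was in 14.9% of promoters of shared pairs and 7.68% of all, and the DRE core in 6.86% and 3.28%. The TATA box ran the other way, with 42.8% for shared pairs and 52.1% for all protein-coding promoters, and the W-box differed little (16.9% and 14.2%). Promoters of shared pairs also had more G and C (36.8% against 32.2%). The windows of close pairs overlap, so a single element can be counted for both genes, and these shares are given as a description.

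The number of regions at a pair followed the distance between the TSS. This was partly set by the definition, since a single peak easily covers 2 close TSS and leaves little room for separate ones. One region covered both TSS in 1130 pairs (45.3%), 2 separate regions were present in 177 (7.1%), only a single gene had a region in 840 (33.7%) and 346 (13.9%) had none. Shared regions made up 82.4% of the pairs up to 100 bp apart, 75.2% between 100 and 250 bp, 39.4% between 250 and 500 bp and 16.2% above 500 bp. Separate regions were nearly confined to the widest pairs, with 163 of the 177 above 500 bp. Even in the closest class, 25 of 357 pairs had H3K4me3 attributed to a single gene. Above 500 bp a region at a single gene was the most frequent form (48.9%).

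**Figure D1:**
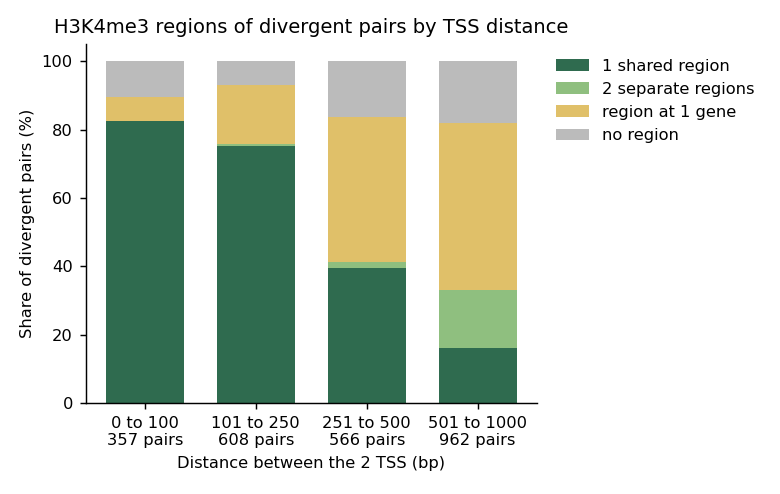
Share of divergent pairs (%, vertical axis) with 1 shared region, 2 separate regions, a region at 1 gene or no region, for 4 classes of TSS distance in bp (horizontal axis, with the number of pairs). Shared regions fall from 82.4% of the closest pairs to 16.2% of the widest, partly by definition, since a shared region has to cover both TSS.

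The pairs at either end of the distance range show this class at its extremes. NUDT2, a nudix hydrolase, and AT5G47660, annotated as a homeodomain-like protein, had TSS 0 bp apart, and their shared region stood at 21.4 and 19.4 in control and 19.3 and 18.4 in stress. ABCA1, an ABC transporter, and AT2G41705 lay 969 bp apart under a single region with 10.7 and 10.5 in control and 11 and 10.1 in stress. Neither change passed the test by limma (log2 −0.11 ± 0.12 (SE), adjusted p = 0.54, and −0.00 ± 0.13, adjusted p = 1). The pair AT4G30000, a dihydropteroate synthase of folate synthesis, and AT4G30010, also 0 bp apart, fell from 33.6 and 35.3 to 27.1 and 20.9 (log2 −0.53 ± 0.13, adjusted p = 0.0011). Without control replicate 2 its adjusted p was 0.08.

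Within single libraries the shared form was also frequent. A peak covered both TSS in 1028 and 962 pairs in control and in 1062 and 1039 in stress, and separate peaks were present in 124 and 110 pairs in control and 177 and 228 in stress. Both differences, 55.5 and 85.5 pairs, had p = 0.33 in an exact two-sided permutation test, the smallest p that 2 against 2 libraries can give. With pileups scaled to equal depth the differences were 48 and 58.5 pairs, and with peaks of a fold enrichment of at least 4 the difference in shared peaks turned to −48. The equal-depth setting only drops weak peaks and leaves the ends of the others as called. It therefore cannot show how depth acts on peak width.

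The gene that carried the mark was stable. Of the 2493 pairs, 1988 had the same form in all 4 libraries, with 904 shared, 75 separate, 316 on the left gene alone, 347 on the right gene alone and 346 unmarked. In 0 pairs did H3K4me3 lie on one gene in both control libraries and on the other gene in both stress libraries, and the count was also 0 at equal depth. Changes of form went mostly one way. The form went from a single gene in control to a shared peak in stress in 27 pairs and the reverse occurred in 1, with the same counts at equal depth. Peak ends stay as called at equal depth, so wider peaks through greater depth were not tested by it. It went from a single gene to 2 separate peaks in 25 pairs and back in 3 (17 and 1 at equal depth), and from no peak to a single gene in 71 and back in 0 (38 and 3 at equal depth).

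The marked gene of a pair tended to be the longer and better annotated one. In the 663 pairs marked on the same gene in every library, the marked gene had a median length of 2395 bp and its unmarked partner 1484 bp, and the marked gene was the longer in 487 pairs (73.5%). Products annotated as hypothetical, uncharacterized, unknown or a DUF domain made up 8.6% of the marked genes and 18.7% of their partners. Genes of shared pairs resembled the marked genes (2394 bp and 8.02%). Genes of pairs with no peak were shorter (1242 bp) and more often of no known function (24%), beside 2078 bp and 14.7% over all protein-coding genes. The TSS of the pairs marked at a single gene were 572 bp apart in the median and those of shared pairs 150 bp.

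Divergent regions as a whole carried more signal than other promoter regions, but those at a single gene did not. Among regions with a peak in every library (2004 divergent and 9382 other promoter regions), the median log2 signal of divergent regions was higher by 0.29 and 0.30 in control and by 0.25 and 0.22 in stress, with a mean of 0.27 over the 4 libraries. The exact sign-flip test gave p = 0.13, the smallest that 4 libraries allow. On fold enrichment, the pileup over the local background, the mean difference was 0.11 with the same p. Divergent regions were also longer, by 122 and 134 bp in control and 176 and 190 bp in stress in the median (exact sign-flip p = 0.13). Of the 2004, 1092 were shared regions, a class chosen for covering both TSS, so longer regions were partly set by definition. Signal was the highest value within a region, and a shared region spans both gene starts, so its higher signal may be partly set by definition too. In control their median length was 1197.5 and 1118 bp, beside 887 and 797 bp for other promoter regions. Separate regions (742 and 648 bp) and regions at a single gene (805 and 724 bp) were shorter. The median log2 signal of shared regions alone exceeded that of other promoter regions by 0.54 and 0.55 in control and 0.44 and 0.39 in stress. That excess was smaller by 0.13 in stress, with no overlap between the groups (exact permutation p = 0.33). In control replicate 1 the median signal was 17.4 for shared, 13.7 for separate, 11.3 for single-gene and 12 for other promoter regions.

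The peak height of shared regions fell under osmotic stress more often than it rose. Over the 2004 divergent regions with a peak in every library, limma called 132 higher and 272 lower at an adjusted p under 0.05, which is 6.59% and 13.6%, beside 10.2% higher and 11.9% lower of all 11925 regions tested. Of the 1092 shared regions 36 were higher and 200 lower (median log2 change −0.09). Of 238 separate regions 23 were higher and 22 lower (median 0.04), and of 673 regions at a single gene 73 were higher and 50 lower (median 0.06). Other promoter regions were called higher in 1060 and lower in 1035 of 9382 (median 0.03). A further 325 divergent regions lacked a peak in at least 1 library and could not be tested, so these counts are not over all members.

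These counts moved with the scale and with single libraries. On fold enrichment 20 shared regions were higher and 140 lower, and over all regions 9.48% were higher and 5.74% lower. With each library divided by its median, 125 divergent regions were higher and 454 lower. Without control replicate 1 the counts over divergent regions were 72 and 144, without control replicate 2 they were 91 and 97, without stress replicate 1 they were 64 and 392 and without stress replicate 2 they were 68 and 117. For shared regions the lower calls numbered 90, 67, 309 and 79 and the higher calls 18, 21, 17 and 28 in the same order, so lower calls outnumbered higher ones in each.

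Lower calls were most frequent among strong shared regions. All tested regions were sorted into 4 classes of equal size by their mean signal over the 4 libraries. In the strongest class 25.6% of 585 shared regions were lower and 1.71% higher, against 17.7% and 5.36% of 2128 other promoter regions. From the weakest to the third class the shared regions were lower in 16.9%, 7.59% and 9.19% and higher in 2.6%, 5.7% and 5.51%, so the weakest class also held many lower calls. Regions at a single gene or separate were higher in 15.4% and lower in 6.61% of the third class, beside 12.1% and 7.92% of other promoter regions. In the strongest class they were higher in 2.48% and lower in 15.8%. Among shared regions, the share that was lower stood at 9.06% with TSS up to 100 bp apart, 18.6% between 100 and 250 bp, 29.1% between 250 and 500 bp and 19.9% above 500 bp.

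**Figure D2:**
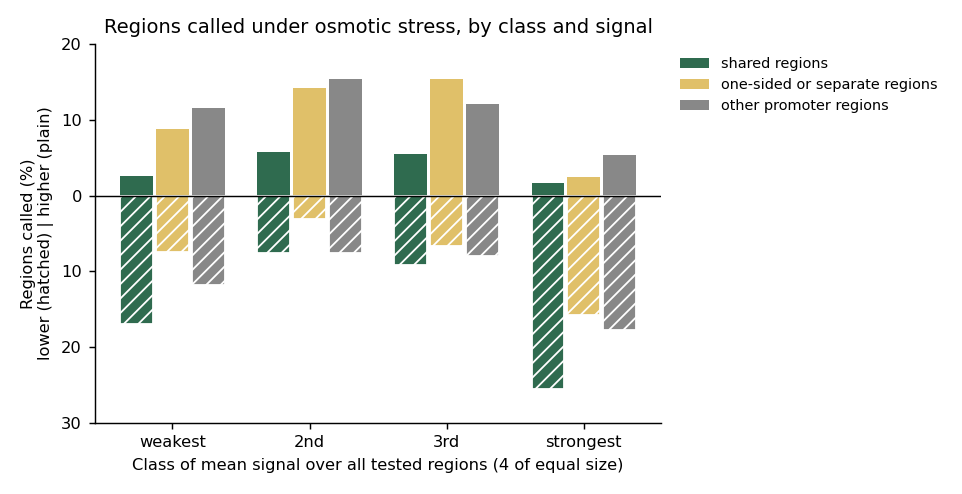
Share of regions (%, vertical axis) called higher (plain bars, upwards) or lower (hatched bars, downwards) under stress by limma, in 4 classes of mean signal from weakest to strongest (horizontal axis), for shared regions, one-sided or separate regions and other promoter regions. In the strongest class 25.6% of shared regions and 17.7% of other promoter regions were lower.

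The summit of a shared peak moved out of the gap. In control 38.7% and 38.9% of shared peaks had their highest point between the 2 TSS, and in stress 23.4% and 17.4%. The difference was −18.4 percentage points, with no overlap between the groups (exact permutation p = 0.33, the smallest possible), and it was −18.6 at equal depth. Summits stay as called at equal depth, so that value does not test an effect of depth on their place. Summits that lay beyond a TSS were 78 and 74.5 bp into the gene in control and 112 and 148 bp in stress in the median. The shared peaks themselves reached further into both genes, to 492 and 444 bp past the left TSS in control and 606 and 673 bp in stress, and to 499 and 461 bp past the right TSS in control and 636 and 683 bp in stress.

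The same was seen pair by pair. Of the 904 pairs with a shared peak in every library, 85 had the summit between the TSS in both control libraries and over a gene in both stress libraries, and 4 had the reverse. The summit switched from one gene to the other in 15, and it kept its place in all 4 libraries in 459 (181 left, 109 between, 169 right). The 109 regions whose summit stayed between the TSS fell most often, with 44 lower (40.4%, median log2 change −0.26), against 52 of 350 (14.9%, median −0.07) where it stayed over the same gene. A move in the same direction was seen at other promoters. Among peaks over a single other TSS, the summit lay upstream of the TSS in 14.7% and 15.9% in control and 7.56% and 5.85% in stress. Subtracting those shares from the share between the TSS left 24 and 23 percentage points in control and 15.8 and 11.6 in stress, a difference of −9.82 (exact permutation p = 0.33). Fragment sizes given by MACS were 266, 270, 271 and 248 bp in the same order of libraries, and the part of fragment size in the summit positions was not tested.

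**Figure D3:**
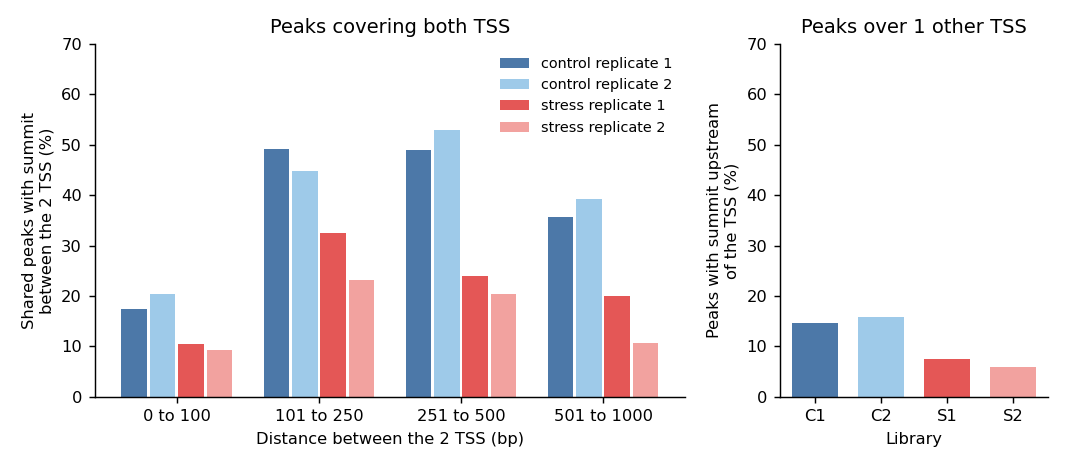
Left, share of peaks covering both TSS whose summit lay between them (%, vertical axis) by TSS distance in bp (horizontal axis), with 1 bar per library. Right, share of peaks over 1 other TSS with the summit upstream (%) in control replicates 1 and 2 (C1, C2) and stress replicates 1 and 2 (S1, S2). Both stress libraries lie below both control libraries in every class.

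The largest rises were at pairs marked at a single gene. The region of AT2G34930, annotated as an LRR-type disease resistance protein, beside VSR5, a vacuolar sorting receptor, stood at 5.22 and 5.78 in control and 15.6 and 15.2 in stress (log2 1.49 ± 0.14, adjusted p = 2.3e-17 by limma). Both stress libraries were far above both control libraries, and the mark lay on AT2G34930. AT5G45920, an esterase beside the lipase AT5G45910, went from 3.66 and 4.38 to 7.51 and 7.04 (0.86 ± 0.18, adjusted p = 7.1e-05). NAC084, a NAC-domain transcription factor beside the exocyst gene EXO70C2, went from 8.77 and 8.75 to 15.5 and 15.7 (0.83 ± 0.13, adjusted p = 1.4e-07).

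The other rises were of the same kind. Cand7, annotated as a seven-transmembrane receptor beside AT5G18510, went from 11.4 and 9.69 to 17.8 and 18.4 (log2 0.78 ± 0.12, adjusted p = 2.2e-07). AT5G20400, an oxygenase beside the glycosyl hydrolase AT5G20390, went from 7.21 and 8.29 to 12.8 and 13.6 (0.77 ± 0.14, adjusted p = 4.2e-06). In all 5 pairs the stress values lay above the control values, which the rule for choosing them required. On fold enrichment the rises were smaller, 0.56 for AT2G34930 and 0.31 to 0.43 for the other 4, and that of AT5G20400 did not pass (limma adjusted p = 0.07). Among shared regions, that of PSAT1, a sterol acyltransferase, and BARD1, a DNA repair protein, rose from 9.32 and 7.35 to 13.5 and 12.9 (0.67 ± 0.14, adjusted p = 5.3e-05). It was picked after its values were seen, for its short gap.

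The largest fall was at a region that matched organelle DNA. The region at AT2G07795, an uncharacterized gene on chromosome 2 (3493153 to 3493477), stood at 23.5 and 21.9 in control and 5.82 and 4.2 in stress (log2 −2.20 ± 0.14, adjusted p = 1.6e-32 by limma). Its whole length of 325 bp matched the mitochondrial genome of the reference at 100% identity, and it was the only divergent region with an organelle match of at least 300 bp and 95% identity. On fold enrichment its change was −0.07 (adjusted p = 0.66). Reads of the nuclear and the mitochondrial copy cannot be told apart, so its fall cannot be assigned to this gene.

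The next fall was at a housekeeping pair. The region of UBC10, a ubiquitin-conjugating enzyme, and AT5G53310 went from 67.8 and 66.9 to 35.3 and 27.9 (log2 −1.10 ± 0.16, adjusted p = 1.5e-08; −0.59 on fold enrichment, adjusted p = 0.0024). ASY1, a protein of the meiotic chromosome axis beside the F-box gene AT1G67390, carried a region that went from 14.8 and 16.3 to 7.7 and 8.13 (−0.97 ± 0.13, adjusted p = 2.1e-09). Both stress values lay under both control values in each, which the rule for choosing the falls required. In another shared region, that of AT3G02080 and MPPBETA, a subunit of the mitochondrial processing peptidase, signal went from 58.8 and 60.2 to 38.7 and 31.1 (−0.78 ± 0.16, adjusted p = 6.4e-05), and it was picked after its values were seen, for its short gap. AT3G24715, a kinase gene beside AT3G24710, went from 8.88 and 8.29 to 4.69 and 4.39 (−0.92 ± 0.17, adjusted p = 6.1e-06), but by −0.16 on fold enrichment (adjusted p = 0.3). AT3G10840, a hydrolase beside AT3G10845, went from 7.55 and 9.07 to 4.63 and 4.86 (−0.80 ± 0.17, adjusted p = 8.2e-05).

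The strongest divergent regions were all called lower. The region of ERD15, a gene first described as induced by dehydration, beside WIH2 stood at 69.6 and 74.9 in control and 45.6 and 42.3 in stress (log2 −0.72 ± 0.18, adjusted p = 0.0011; −0.24 on fold enrichment, adjusted p = 0.1). AT2G36300 and FACE2, a protease of farnesylated proteins, shared a region at 57.9 and 68.3 in control and 46.7 and 37.1 in stress (−0.60 ± 0.17, adjusted p = 0.0051). AT5G02960, a ribosomal protein, and AT5G02970 shared one at 58 and 61.4 in control and 44.3 and 30 in stress (−0.71 ± 0.16, adjusted p = 4e-04). Together with UBC10 and with AT3G58600 and AT3G58610, a ketol-acid reductoisomerase of branched-chain amino acid synthesis (53.3 and 54.7, then 45.4 and 36, −0.42 ± 0.16, adjusted p = 0.046), all 5 had both stress values under both control values. Without control replicate 1 or 2 the limma adjusted p was 0.17 or 0.24 for ERD15, 0.17 or 0.37 for FACE2, 0.089 or 0.13 for AT5G02960 and 0.4 or 0.45 for AT3G58610, and without stress replicate 2 it was 0.082 for AT3G58610.

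**Figure D4:**
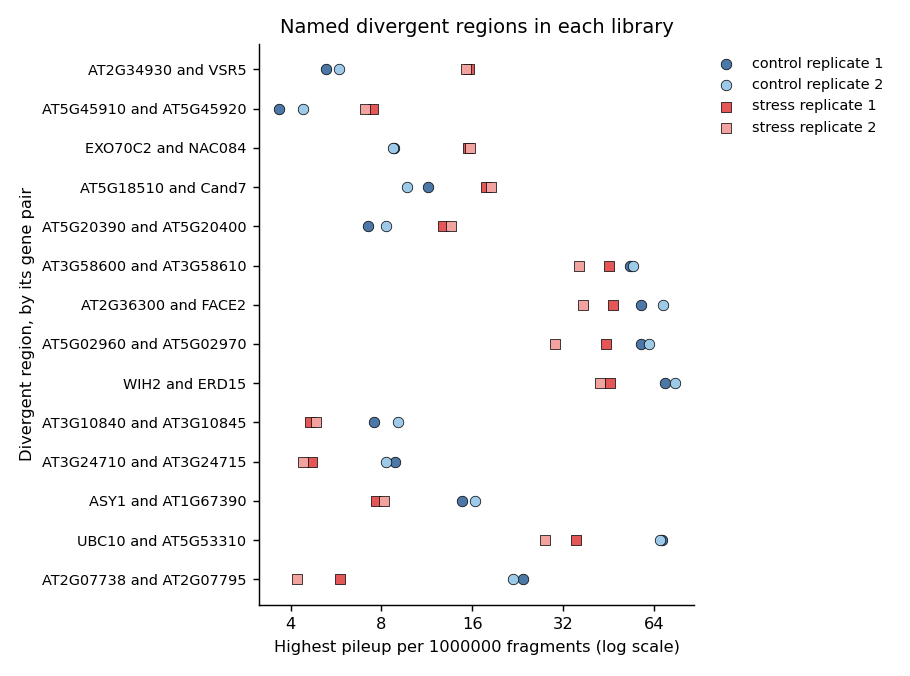
Signal in each library (highest pileup per 1000000 fragments, log scale, horizontal axis) of the divergent regions with the largest rises, the largest falls and the highest mean signal, ordered by their log2 change (vertical axis, gene pairs), with circles for control and squares for stress. In each region the 2 stress values lie on one side of the 2 control values, which was a condition for choosing the rises and falls.

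Regions of translation and histone genes were called lower more often than higher. Of 102 pairs with a ribosomal protein gene, 72 had it under a shared region, and of the 92 regions tested 24 were lower (26.1%) and 2 higher (2.17%), beside 11.9% and 10.2% of all regions and 18.3% and 3.3% of shared regions. The median log2 change was −0.17 (−0.10 on fold enrichment), against 0.01 over all tested regions. These ribosomal regions were strong, with a median signal of 19.4, and those of core histones below had 21.9. In the strongest class of signal 25.6% of shared regions were lower and 1.71% higher, which is near the ribosomal shares. A difference from regions of like signal was not tested. RS27A, a protein of the small ribosomal subunit beside AT3G61100, went from 35.5 and 32.5 to 23 and 20.1 (−0.66 ± 0.13, adjusted p = 2.6e-05 by limma). AT2G40010, a protein of the L10 family beside AT2G40020, went from 10.5 and 8.6 to 5.63 and 5.56 (−0.77 ± 0.16, adjusted p = 6.3e-05). Regions of core histone genes were lower in 3 (23.1%) and higher in 0 of 13 (median −0.22). HTB11, a histone H2B, and RPS15AD, a ribosomal protein, shared a region that went from 37.1 and 37.7 to 27.4 and 21.4 (−0.63 ± 0.13, adjusted p = 1.2e-04).

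Regions of chaperone genes were lower in 11 (26.8%) and higher in 1 (2.44%) of 41, with a median of −0.14 (−0.09 on fold enrichment), and 32 of the 56 chaperone genes in pairs lay under a shared region. The share over all regions was 11.9% lower, over shared regions 18.3% and over shared regions of the strongest class 25.6%. The median signal of the chaperone regions was 16.8. The pair AT4G12770 and AT4G12780, 2 DnaJ-domain genes 317 bp apart, went from 25.1 and 26.1 to 18.7 and 13.6 (log2 −0.68 ± 0.12, adjusted p = 5.7e-06 by limma). The region of AT2G29500, a small heat shock protein, and AT2G29510 went from 38.9 and 46.7 to 30.8 and 23.5 (−0.66 ± 0.14, adjusted p = 1.1e-04, or 0.095 without control replicate 2). Regions of pentatricopeptide repeat genes, whose products process organelle RNA, were lower in 7 (12.3%) and higher in 3 (5.26%) of 57 (median −0.03), so their lower share was near the 11.9% of all regions. The largest of these falls was at NRP1, a histone chaperone of the NAP1 family, and AT1G74580, from 22.4 and 26.1 to 16.5 and 12 (−0.78 ± 0.12, adjusted p = 1.4e-07).

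Genes of the lists for stress hormones were less frequent in divergent pairs than protein-coding genes at large, of which 4986 of 27444 lay in pairs. Of 80 genes of abscisic acid and osmotic stress responses 7 lay in divergent pairs and 3 of their regions could be tested, with 0 called (median log2 change −0.24). A list of jasmonate and wounding genes also took in all genes with ERF and WRKY symbols, so it is not one of jasmonate genes alone. Of its 127 genes 10 lay in pairs, and 0 of 5 regions were called (median 0.10). Over all tested regions 10.2% were higher and 11.9% lower, so 0 calls among so few regions say little. A list of histone methylation genes was drawn up by symbols such as ATX, SDG, ASH and JMJ. Which histone residue each of them acts on was not checked. Among 8 regions of these genes 1 was lower (12.5%, near the 11.9% of all regions). That region, of ASHH3, a histone methyltransferase, and AT2G44140, went from 23.6 and 21.6 to 17.7 and 14.6 (−0.49 ± 0.12, adjusted p = 0.0011 by limma). Without control replicate 1 or stress replicate 2 its adjusted p was 0.054 or 0.058.

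Where both genes had a region of their own, the 2 regions seldom changed unequally. In 80 of the 177 separate pairs both regions had a peak in every library, and limma on the ratio of the right to the left region called 11 (13.8%), beside 24.9% of 8847 pairs of consecutive regions along the chromosomes. At an unadjusted p under 0.05 it called 21. Both regions were called lower in 2 pairs, 0 pairs had calls in opposite directions, 18 had a call for 1 of 2 regions and 60 had none. WIH2 and ERD15 were one of the 2 pairs, with −0.69 for the left and −0.72 for the right region. EIF4A1, a translation initiation factor, and AT3G13930 were the other, with −0.38 and −0.44. Without stress replicate 2 the ratio was called in 0 pairs, without stress replicate 1 in 3, and without control replicates 1 and 2 in 18 and 17.

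Of the 11 pairs with a called ratio, 8 had 1 region called on its own and 3 had neither. TUA6, an alpha-tubulin, stood at 31.5 and 36.7 in control and 33.3 and 25.3 in stress, and its neighbour MAPR4 at 9.99 and 10.9 in control and 14.3 and 13.1 in stress (change of the log2 ratio 0.62 ± 0.17, adjusted p = 0.013 by limma). NTF2A, a nuclear transport factor, stood at 25.6 and 27.8, then 24.4 and 24.7, while HK3, a cytokinin receptor, fell from 20.5 and 23 to 15.4 and 12.2 (ratio −0.54 ± 0.16, adjusted p = 0.02). AT5G23680, a SAM-domain gene, rose from 9.21 and 10.9 to 13.3 and 14.1 beside AT5G23690 at 9.43 and 9.07, then 9.01 and 7.66 (ratio −0.60 ± 0.16, adjusted p = 0.012). Taken alone, the region of AT5G23680 had a limma adjusted p of 0.0061, which was 0.14 without control replicate 1 and 0.1 without stress replicate 2, and that of HK3 had 7.7e-06. The region of MAPR4 had 0.017, which was 0.14 without control replicate 1, 0.15 without stress replicate 1 and 0.054 without stress replicate 2.

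In the other named pairs of this kind the right region fell. AT3G60810 fell from 15.1 and 17.4 to 11.6 and 12.8 beside AT3G60800, a DHHC-type zinc finger gene, at 16.1 and 20, then 20 and 20.8 (change of the log2 ratio −0.59 ± 0.15, adjusted p = 0.0083 by limma). AXL, related to the AXR1 subunit of the enzyme that activates the ubiquitin-like protein RUB, fell from 13.2 and 17.8 to 11.4 and 12.1 beside GLR5, a glutamate receptor-like gene, at 9.32 and 9.22, then 12.3 and 9.26 (ratio −0.59 ± 0.18, adjusted p = 0.025). Taken alone, the region of AXL had a limma adjusted p of 0.016, which was 0.5 without control replicate 2 and 0.085 without stress replicate 1, and that of AT3G60810 had 0.0089, which was 0.17 and 0.081.

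**Figure D5:**
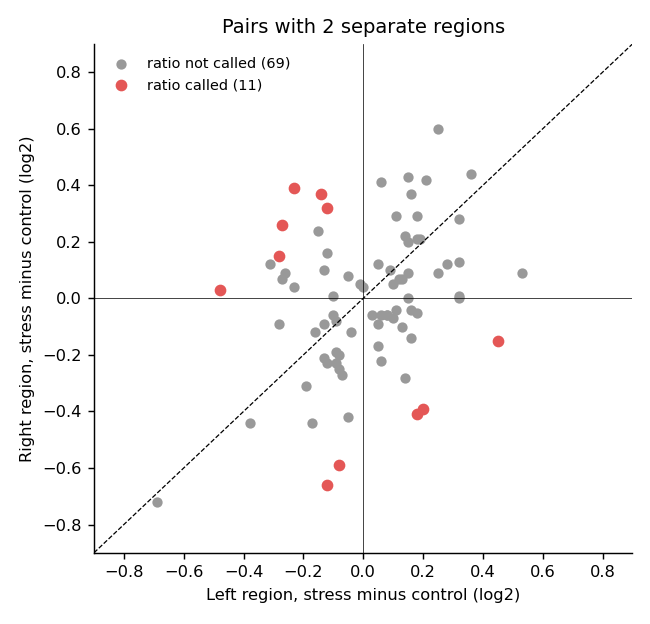
Log2 change under stress of the right region (vertical axis) against that of the left region (horizontal axis) for the 80 pairs with 2 separate regions tested, with the 11 pairs whose ratio was called by limma in red and the line of equal change dashed. The called pairs lie off the line on both sides.

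Regions with a peak in a single condition were almost all found in stress. Peaks were present in both stress libraries and in neither control library in 129 divergent regions (5.54%, beside 8.24% of all regions), and the reverse held for 1 (0.442% of all regions), that of AT3G20930 beside AT3G20920, at 6.44 and 7.97. Of the 129, 68 were at pairs marked at a single gene, 43 at separate pairs, 17 were shared and 1 lay beside a shared region. Their mean stress signal was 7.27 in the median (1.39 to 17.2). At equal depth the counts were 70 and 5, with a fold enrichment of at least 4 they were 54 and 65, and without control replicate 1 they were 235 and 3. Depth moved with these counts, and a peak in stress alone cannot be told apart from the greater depth of the stress libraries.

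Among the strongest of them was PCL1, a transcription factor of the evening complex of the circadian clock, at 16.1 and 18.2 in stress, whose region lay just right of another region at the pair. The shared region of AT5G65840, a thioredoxin-family gene, and AT5G65850 stood at 18 and 16.3 and that of AT3G02450, an FtsH-type protein, and AT3G02460 at 13.5 and 14.6. ATPC2, the gamma subunit of the chloroplast ATP synthase, stood at 16.6 and 15.7. The region of AT4G24340 beside AT4G24330 stood at 15.3 and 13.6. Fold enrichment was low in each, with 1.5 and 1.75 at PCL1 and 1.59 and 1.54 at ATPC2. It was 2.09 and 1.95 at AT5G65840, 1.67 and 1.8 at AT3G02450 and 1.93 and 1.76 at AT4G24340. Tested divergent regions had medians of 4.45 and 4.47 in stress. No control value exists for these regions, since the tables list called peaks alone.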

How the data were processed

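H3K4me3 CUT&Tag peak tables of 4 Arabidopsis root libraries were analysed. Per the labels' processing notes, fastp 0.19.7, Bowtie2 2.3.5.1 and the TAIR10 build were used, and the authors called peaks in each library with MACS 2.2.7.1 (p cutoff 1e-05, local background over 10000 bp, effective genome size 2700000000 bp per the file headers, which is not that of Arabidopsis). Deposited per peak were the pileup, which is a signal of stacked fragments with no scaling to depth, the fold enrichment, a ratio to the local background, and the −log10 p and q. The recomputed −log10 p of 57046 peaks differed from the deposited one by a relative 2.35e-05 at most.

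Genes and sequence came from RefSeq TAIR10.1, whose chromosomes 1 to 5 hold all peak positions. Overlapping peaks were merged. Log2 pileup per 1000000 fragments entered limma 3.58.1 (R 4.3.3), by lmFit and eBayes with a trend, with Benjamini-Hochberg adjustment over 11925 regions and a threshold of 0.05. The same fit was run on the ratio of 8847 pairs of consecutive regions. A pair was shared where one interval covered both TSS. At equal depth, pileups were scaled to the shallowest library and peaks kept at a Poisson p of 1e-05 or less. Ends and summits of the kept peaks were left as called. Motifs were matched by letters and organelle copies with blastn 2.17.0+. Other steps used Python 3.11.15, pandas 2.3.3, scipy 1.17.1 and matplotlib 3.10.9. The scripts were tested on simulated data.

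Named regions were the 5 largest rises and 5 largest falls among called regions with no overlap of the groups, the 5 strongest, the 5 most unequal called pairs, the 5 strongest in one condition alone and the 3 closest and 3 widest shared pairs. Called members of the lists were also named, at most 5 per list by the smallest adjusted p. The members, lists and rules were chosen with earlier results of these data known. Alternatives on the peak threshold, scaling, distance, flank, model and left-out libraries were tried, and those of the counts of shared regions were chosen after seeing the data. Single-cell data of the study were not used here.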

Additional observations from a re-analysis of the deposited data

How the results depend on the processing

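Peaks of a fold enrichment of at least 4 gave 36 divergent regions higher and 120 lower, 15 shared regions higher and 100 lower, 0 unequal pairs of 3 tested, 14 separate pairs, 54 regions in stress alone, 65 in control alone and a difference in shared peaks of −48 pairs. Fold enrichment in place of pileup gave 181 lower, and 20 shared regions higher. Division by the library median gave 454 lower, 329 of them shared. A minimum change of 1.5-fold left 16 higher and 66 lower. A TSS distance of at most 500 bp gave 71 higher, 0 unequal pairs, 14 separate pairs, 58 regions in stress alone and 0 in control alone. A −log10 q of at least 10 left 0 in control alone. Equal depth gave 70 in stress alone and 5 in control alone. Without the trend 23 shared regions were higher. The cause of these changes was not tested, except that a distance or fold limit removes regions by construction.

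Leaving out 1 library gave 64 to 91 divergent regions higher and 97 to 392 lower, 17 to 28 shared regions higher and 67 to 309 lower, 0 to 18 unequal pairs, 133 to 235 regions in stress alone and 2 to 10 in control alone. Where this left 1 library in a group, limma took its spread from the other group.

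With replicate number as a block 122 divergent regions were higher, 235 lower and 14 pairs unequal. The correlation of deviations of same-numbered libraries was −0.003, so the numbers did not pair them. Of 48 named regions tested under the alternatives, 390 of 451 values kept direction and call, 53 lost the call, 2 gained it and 6 changed sign. The signs changed for NTF2A (0.11 on fold enrichment), ABCA1 (0.05 on fold enrichment, −0.06 to 0.06 with 1 library left out, 0.01 without control replicate 1), GLR5 (−0.00 to 0.41 with 1 library left out) and the region of SLK2 and BAG2 (−0.07 to 0.22), none of them called. Depth limits the counts of peaks in one condition, and regions without a peak in a library have no value there.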
